A study of Homo sapiens with 24 samples.

Results

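10 genes of the ADAMTS family of secreted metalloproteases were followed in RNA-seq libraries of T/C-28a2 cells, an immortalised human chondrocyte line. The members (ADAMTS1, ADAMTS2, ADAMTS3, ADAMTS4, ADAMTS5, ADAMTS6, ADAMTS7, ADAMTS9, ADAMTS12 and ADAMTS15) were matched by symbol to the Ensembl identifiers of the count files. They are 10 of 62703 genes counted and 10 of 16600 genes that passed the filter on low counts. The 24 libraries form 6 groups of 4 biological replicates. WT Ctr and WT Sor are wild-type cells in isotonic medium and in medium with 100 mM sorbitol for 7 days. WNK2- Ctr and WNK2- Sor come from a CRISPR clone that lacks exon 2 of WNK2, in the same media. WNK2 trans Ctr and WNK2 trans Sor are wild-type cells transfected for 48 hours with a plasmid encoding wild-type WNK2, an osmosensitive kinase, again in the same media. The WNK2- cells are a single clone, so what the clone carries beside the deletion cannot be told apart from the genotype. The WT cells were not transfected, so the plasmid and the transfection cannot be told apart from WNK2 itself.

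ADAMTS proteases carry a metalloprotease domain followed by thrombospondin type 1 repeats that bind matrix, and are made as proproteins that furin-like convertases activate. In cartilage the family is best known for the aggrecanases ADAMTS4 and ADAMTS5, which cut the aggrecan core protein in osteoarthritis. ADAMTS1, ADAMTS9 and ADAMTS15 belong to the same proteoglycan-cutting branch, ADAMTS2 and ADAMTS3 remove the amino-terminal propeptides of fibrillar procollagens, ADAMTS7 and ADAMTS12 cut cartilage oligomeric matrix protein (COMP), and ADAMTS6 is known for acting on microfibril and cell-surface proteins.

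Library totals ran from 14153002 to 25664619 counts. WNK2 itself had 1217 to 2568 counts in the libraries labelled WT Ctr and 163 to 290 in those labelled WNK2 trans Ctr, which goes against the transfection label, whereas the libraries labelled WNK2 trans Sor held 2237 to 3739. WT Sor held 266 to 314 WNK2 counts, below every WT Ctr library (log2 −3.06, edgeR adjusted p = 1.52e-10), WNK2- Ctr 440 to 501 and WNK2- Sor 322 to 503. Between WNK2- Sor and WT Sor, WNK2 did not pass the test (0.25, adjusted p = 0.330; 19.6 against 16.5 CPM), so its level does not set these groups apart. A count over the whole gene is no direct check of the loss of exon 2. Every direction below therefore rests on the labels. The 17 chondrocyte markers summed to between 104 and 162 CPM (counts scaled to library sizes of 1e6) in the WT and transfected libraries and to between 29.1 and 34.6 CPM in the WNK2- libraries. Of those markers, 2 had no count in any library, SOX9 among them. In WNK2 trans Sor the sum was carried by HAPLN1, a link protein of aggrecan, at a mean of 117 CPM. In WT Sor, where the markers summed to 110 to 114 CPM, HAPLN1 was at 66.5 CPM. Of the 11 tested markers, 8 were lower in WNK2 trans Sor than in WT Sor (15.5% of all tested genes) and 1 higher (16.1%). The median log2 of the 11 was −1.83. Against WT in the same medium, 5 were lower in WNK2- Ctr (21.5% of all genes) and 7 in WNK2- Sor (22.7%). There 0 were higher in either medium (20.7% and 23.7% of all genes). Markers of other cell types summed to 24.4 to 106 CPM for endothelium, 6.61 to 24.9 CPM for macrophages and leukocytes, 0.469 to 2.72 CPM for epithelium and 0.219 to 2.13 CPM for fat cells. The endothelial sum was 99.3 to 106 CPM in WNK2 trans Sor, above every other group. The part of these marker shifts in the ADAMTS values was not tested. In bulk RNA, fewer cells that express a gene and less RNA of it per cell cannot be told apart.

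The counting left its own trace on the family. Of 1021 protein-coding genes that GENCODE 29 places wholly inside a gene of the opposite strand, 1007 (98.6%) had no count in any library, against 8.87% of the 18318 protein-coding genes that lie in no other gene. Genes inside a gene of the same strand stood alike at 96.7% of 481. Reads in a span shared by different genes were thus largely not counted for the nested gene, whichever the strand. SOX9, TIMP1, TIMP3 and TIMP4 lie wholly inside other genes and are listed at 0 in every library, which says nothing of their expression. Among the members ADAMTS5 is the most exposed. An antisense transcript, AP001599.1, spans 83.1% of its exonic bases in GENCODE 29. That leaves 16.9% of them, and any intronic sequence outside that span, to be counted. The overlap was 11.2% for ADAMTS9, 10.3% for ADAMTS4, 4.02% for ADAMTS7, 0.976% for ADAMTS3 and 0% for ADAMTS1, ADAMTS2, ADAMTS6, ADAMTS12 and ADAMTS15. This concerns levels set between genes, since the same bases were counted in every library.

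Per length, ADAMTS12 was the most abundant of the 10 members in each of the 6 groups. Its mean level per kilobase of exon was 10.4 ± 2.13 CPM per kb (SD, n = 4) in WT Ctr and 30.1 ± 6.27 in WNK2 trans Sor. Among the members ADAMTS1 came next in WT Ctr at 5.23 ± 0.80 CPM per kb, followed by ADAMTS7 at 2.93 ± 0.67 and ADAMTS6 at 2.46 ± 0.53. ADAMTS16, an ADAMTS protease outside the 10 members, stood at 13.3 ± 1.14 CPM per kb in WT Ctr, above ADAMTS12, and at 8.62 ± 1.68 in WNK2 trans Sor. ADAMTS5, the aggrecanase, stood at 1.04 ± 0.29 CPM per kb of all its exons in WT Ctr, but at 6.14 ± 1.71 CPM per kb of the exons that no other gene spans, which is above ADAMTS1. ADAMTS4, the other aggrecanase, was the lowest member in every group, between 0.0163 and 0.104 CPM per kb. The summed level of the 10 genes was 24.2 ± 3.46 CPM per kb in WT Ctr and 33.2 ± 1.33 in WT Sor. It was 43.0 ± 3.99 and 57.9 ± 3.97 for WNK2- Ctr and Sor, and 24.1 ± 2.77 and 64.9 ± 9.07 for WNK2 trans Ctr and Sor. ADAMTS12, ADAMTS1 and ADAMTS6 made up most of the sum in each group on the scale of all exons. On the length outside other genes, ADAMTS5 held 20.8% of the summed level in WT Ctr and 1.72% in WNK2- Sor. Both length scales take every count as exonic. Nested genes were largely left uncounted across the whole span of the other gene, introns included, so the counts may hold intronic reads. The share of such reads was not tested, and they would raise members with long introns in this ranking.

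**Figure D1:**
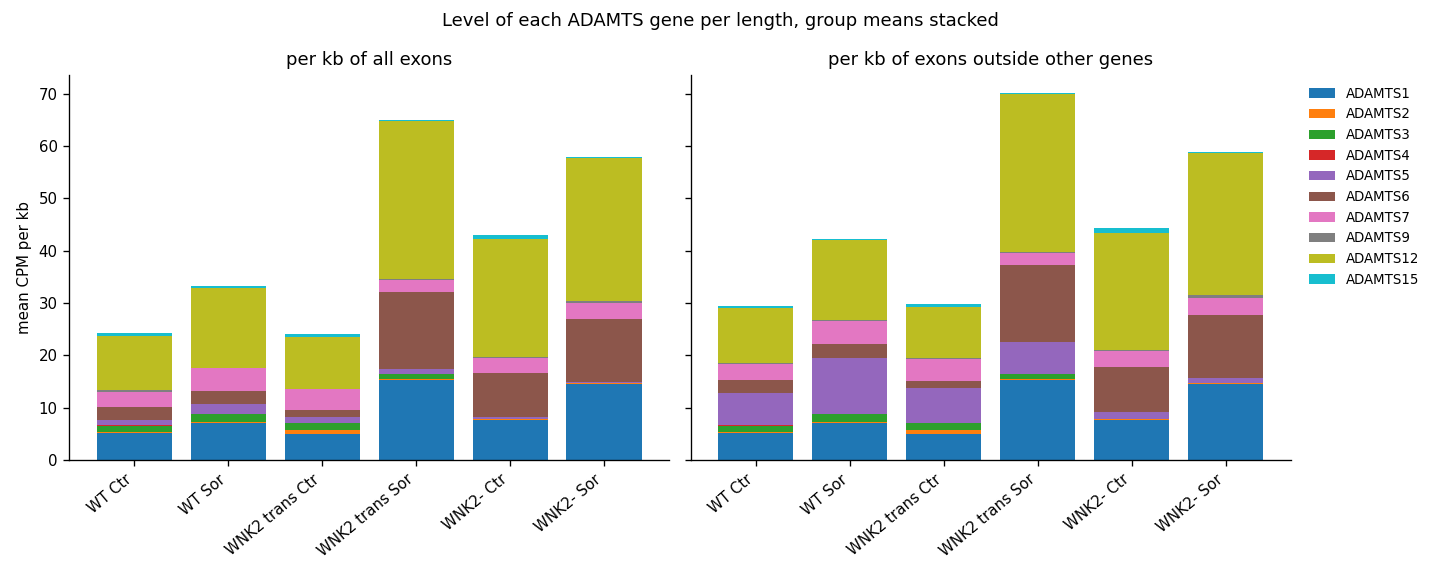
Mean level of each ADAMTS gene in CPM per kb (y axis), stacked for the 6 groups (x axis, 4 libraries each), with length taken as all exons (left) or as the exons outside the spans of other genes (right). The stack is 24.2 CPM per kb high in WT Ctr and 64.9 in WNK2 trans Sor on the left, and the ADAMTS5 segment is the one that grows on the right, to 6.14 CPM per kb in WT Ctr.

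The next question was how many members differed from wild-type cells in the same medium. In isotonic medium, 4 of 10 members were higher in WNK2- Ctr than in WT Ctr (edgeR adjusted p under 0.05; 20.7% of all tested genes were higher), 4 were lower (21.5% of all genes) and 2 did not pass. ADAMTS1, ADAMTS6, ADAMTS12 and ADAMTS15 were the higher ones and ADAMTS3, ADAMTS4, ADAMTS5 and ADAMTS9 the lower ones. In sorbitol, 4 members were higher in WNK2- Sor than in WT Sor (23.7% of all genes) and 3 lower (22.7%). There ADAMTS1, ADAMTS6, ADAMTS9 and ADAMTS12 were the higher ones and ADAMTS3, ADAMTS5 and ADAMTS7 the lower ones. Between WNK2 trans Ctr and WT Ctr, 1 member was higher (ADAMTS2; 5.57% of all genes) and 1 lower (ADAMTS6; 6.98%). Between WNK2 trans Sor and WT Sor, 4 were higher (16.1% of all genes) and 5 lower (15.5%), which left only ADAMTS4 not called. The median log2 fold change of the 10 members was 0.06, −0.42, 0.19 and −0.76 in these comparisons in turn, against medians of 0.00, 0.02, 0.01 and 0.01 over all tested genes. The comparisons share WT libraries, so their results are not independent.

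**Figure D2:**
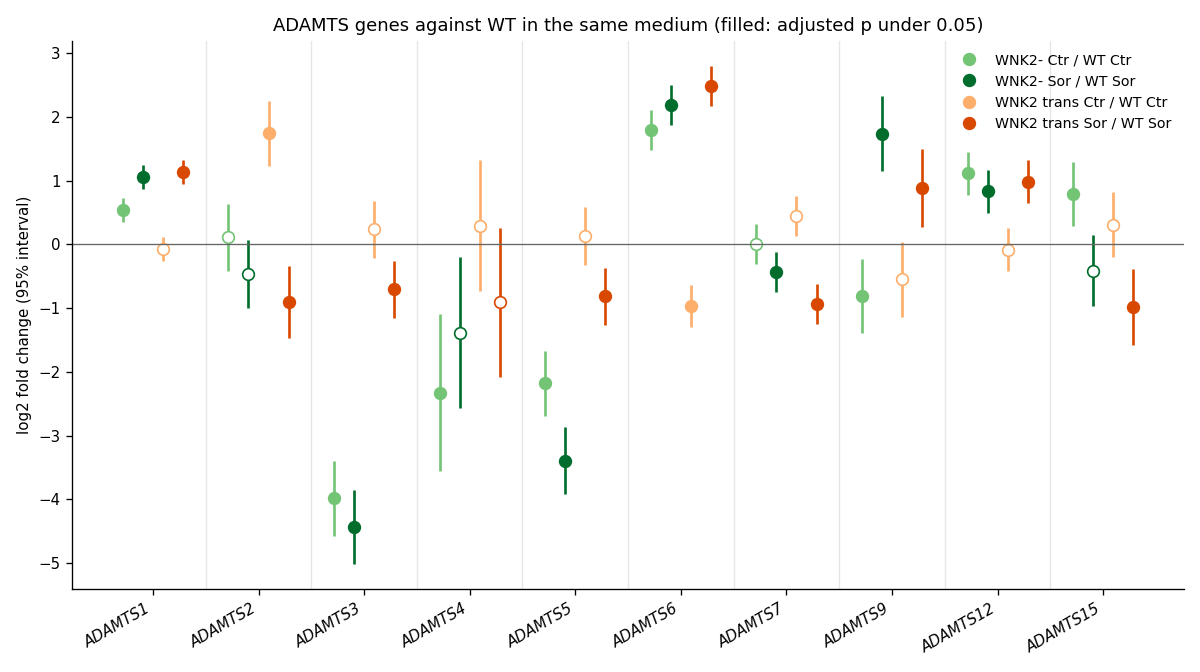
Log2 fold change (y axis, 95% intervals) of each ADAMTS gene (x axis) against WT cells in the same medium, for 4 comparisons of 4 against 4 libraries. ADAMTS3 lies furthest below 0 in the WNK2- comparisons (−3.98 in isotonic medium and −4.44 in sorbitol) and ADAMTS6 furthest above it (1.79 and 2.19), and filled points passed the test.

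Sorbitol against isotonic medium was then compared within each set of cells. In WT cells, 4 members were higher in WT Sor than in WT Ctr (ADAMTS1, ADAMTS5, ADAMTS7 and ADAMTS12; 11.4% of all tested genes were higher), 1 was lower (ADAMTS9; 12.7% of all genes) and 5 did not pass. In WNK2- cells, 3 were higher in sorbitol (ADAMTS1, ADAMTS6 and ADAMTS9; 8.25% of all genes) and 1 lower (ADAMTS15; 6.64%). In the transfected libraries, 3 were higher in WNK2 trans Sor than in WNK2 trans Ctr (ADAMTS1, ADAMTS6 and ADAMTS12; 24.3% of all genes) and 4 lower (ADAMTS2, ADAMTS4, ADAMTS7 and ADAMTS15; 23.7%). An interaction term tested whether the sorbitol difference itself differed from that in WT cells. For genotype it passed for 4 members, 2 upward (ADAMTS1 and ADAMTS9; 3.99% of all genes) and 2 downward (ADAMTS5 and ADAMTS15; 4.66%). For transfection it passed for 9 members, 4 upward (ADAMTS1, ADAMTS6, ADAMTS9 and ADAMTS12; 18.1% of all genes) and 5 downward (ADAMTS2, ADAMTS3, ADAMTS5, ADAMTS7 and ADAMTS15; 17.4%).

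**Figure D3:**
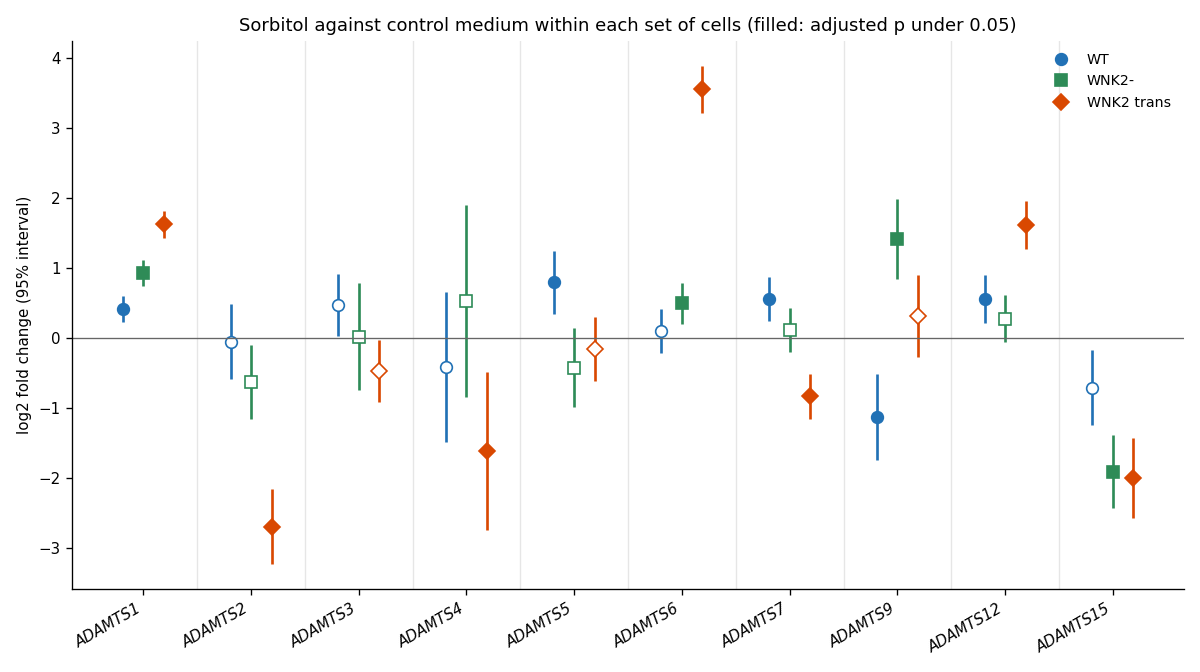
Log2 fold change of sorbitol against isotonic medium (y axis, 95% intervals) for each ADAMTS gene in WT, WNK2- and transfected cells, 4 against 4 libraries each. ADAMTS9 lies on opposite sides of 0 in WT (−1.13) and WNK2- cells (1.42), and ADAMTS6 stands out in the transfected cells (3.55).

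Of the aggrecanases, ADAMTS5 (ENSG00000154736, GRCh38 chromosome 21, 26917912 to 26966513, minus strand) was lower in the WNK2- cells in either medium. It stood at 7.88, 6.64, 10.7 and 12.4 CPM in WT Ctr replicates 1 to 4 and at 1.34, 2.43, 2.39 and 2.09 CPM in WNK2- Ctr. In sorbitol it stood at 17.1, 17.9, 16.0 and 14.3 CPM in WT Sor and at 1.34, 1.36, 1.74 and 1.78 CPM in WNK2- Sor. Every WNK2- library lay below every WT library, and WT Sor lay above WT Ctr without overlap. The log2 fold change of genotype was −2.18 (standard error (SE) 0.25, edgeR adjusted p = 1.23e-07) in isotonic medium and −3.40 (SE 0.25, adjusted p = 4.69e-11) in sorbitol, the latter a 10.5-fold difference. Sorbitol raised ADAMTS5 in WT cells by 0.79 on the log2 scale (SE 0.22, edgeR adjusted p = 0.0104), while in WNK2- cells its value was −0.42 (adjusted p = 0.353). The test of that difference gave −1.22 (SE 0.35, edgeR adjusted p = 0.0322). It did not pass with thinned counts (0.0938), and leaving out WT Ctr replicate 2, WT Sor replicate 1, 2 or 3, WNK2- Ctr replicate 2, 3 or 4, or WNK2- Sor replicate 1, 2 or 3 took the adjusted p of ADAMTS5 to between 0.0507 and 0.0763. In the transfected libraries ADAMTS5 was at 12.3, 12.3, 5.33 and 11.3 CPM in isotonic medium and at 10.7, 6.78, 8.98 and 10.5 CPM in sorbitol. Those groups overlap, and WNK2 trans Sor was below WT Sor, at a log2 difference of −0.82 (edgeR adjusted p = 0.00609).

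ADAMTS4 (ENSG00000158859, chromosome 1, 161184308 to 161199056, minus strand) was counted too rarely for small changes to be seen. The WT libraries held 7 to 24 counts in isotonic medium and 7 to 18 in sorbitol, and the WNK2- libraries 3 to 4 and 2 to 8. The transfected libraries had 13 to 21 counts in isotonic medium and 9, 10, 5 and 0 in sorbitol, where the count of 0 allows up to 0.150 CPM (3 counts, counting error only). The gene was lower in WNK2- Ctr than in WT Ctr, at a log2 value of −2.32 (SE 0.60, edgeR adjusted p = 0.00288) that rests on these few counts. For WNK2- against WT in either medium, ADAMTS4 missed the filter in the fit of the compared groups alone and was not tested there. It was also lower in WNK2 trans Sor than in WNK2 trans Ctr (−1.61, edgeR adjusted p = 0.0178, and 0.0693 in the fit of the compared groups alone). In sorbitol the value for WNK2- against WT was −1.38 (95% interval −2.57 to −0.20, edgeR adjusted p = 0.0516), just outside the threshold. It passed with DESeq2 (adjusted p = 0.0326), with thinned counts (0.0316) and without any 1 of WT Ctr replicate 2, WT Sor replicate 1, WNK2 trans Sor replicates 1, 2 and 4 and WNK2- Sor replicate 3 (0.0162 to 0.0477).

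ADAMTS1 (ENSG00000154734, chromosome 21, 26835747 to 26845409, minus strand) cuts versican and, less efficiently, aggrecan. It lies 72.5 kb from ADAMTS5 on the same strand. It had 34.0, 30.8, 39.3 and 43.5 CPM in WT Ctr replicates 1 to 4, 47.2, 50.1, 51.5 and 48.5 CPM in WT Sor, 50.8, 55.0, 53.3 and 55.3 CPM in WNK2- Ctr and 105, 108, 90.8 and 105 CPM in WNK2- Sor. The transfected libraries went from 37.6, 32.2, 35.1 and 35.5 CPM in isotonic medium to 109, 105, 111 and 108 CPM in sorbitol. Sorbitol groups lay above isotonic groups without overlap in each set of cells. From the lowest to the highest mean the order was WNK2 trans Ctr, WT Ctr, WT Sor, WNK2- Ctr, WNK2- Sor and WNK2 trans Sor, in which WNK2 trans Ctr overlaps WT Ctr, WT Sor overlaps WNK2- Ctr, and WNK2- Sor overlaps WNK2 trans Sor. The sorbitol difference was 0.42 on the log2 scale in WT cells (SE 0.09, edgeR adjusted p = 0.00157), 0.93 in WNK2- cells (SE 0.09, adjusted p = 3.48e-08) and 1.62 in transfected cells (SE 0.09, adjusted p = 2.69e-13). Both differences from WT cells passed, by 0.51 for genotype (edgeR adjusted p = 0.0120) and 1.21 for transfection (adjusted p = 6.34e-08). The first lost its call when genes were not filtered (0.47, adjusted p = 0.0768). Between genotypes ADAMTS1 was 0.54 higher in WNK2- cells in isotonic medium (edgeR adjusted p = 3.37e-05) and 1.05 higher in sorbitol (adjusted p = 5.19e-10), whereas its neighbour ADAMTS5 was lower in both. Of the 11 other tested genes within 2 Mb of ADAMTS1, 4 were higher (20.7% of all genes) and 2 lower (21.5%) in WNK2- Ctr than in WT Ctr (median −0.04 on the log2 scale). In WNK2- Sor against WT Sor, 7 were higher (23.7% of all genes) and 2 lower (22.7%), with a median of 0.63. ADAMTS5, itself lower there, had 13 tested neighbours, with 8 higher (23.7% of all genes) and 1 lower (22.7%). Since the genes lie 72.5 kb apart, their windows hold largely the same genes, and each is counted among the neighbours of the other. Their equal median is therefore no second observation.

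ADAMTS9 (ENSG00000163638, chromosome 3, 64515654 to 64688000, minus strand) also cuts aggrecan and versican, and passed the test for sorbitol in both WT and WNK2- cells, in opposite directions. It had 1.90, 3.61, 2.06 and 2.60 CPM in WT Ctr and 0.593, 1.56, 1.33 and 1.17 CPM in WT Sor. In the WNK2- cells it went the other way, from 1.19, 1.59, 1.78 and 1.22 CPM to 4.05, 3.22, 3.79 and 4.43 CPM. Neither pair of groups overlaps. The log2 fold change of sorbitol was −1.13 (SE 0.30, edgeR adjusted p = 0.00717) in WT cells and 1.42 (SE 0.27, adjusted p = 0.000661) in WNK2- cells, and the interaction was 2.54 (SE 0.40, adjusted p = 0.000179). ADAMTS9 was lower in WNK2- than in WT cells in isotonic medium (−0.81, edgeR adjusted p = 0.0242) and higher in sorbitol (1.73, adjusted p = 1.99e-05). The isotonic call was lost without WT Ctr replicate 2 (−0.59, adjusted p = 0.114), WNK2- Ctr replicate 1 (−0.72, 0.0669) or WNK2- Ctr replicate 4 (−0.73, 0.0679). In the transfected libraries ADAMTS9 had 2.44, 1.70, 1.71 and 1.13 CPM in isotonic medium and 1.31, 1.97, 2.65 and 2.65 CPM in sorbitol, which overlap. WNK2 trans Sor was above WT Sor by 0.89 (edgeR adjusted p = 0.0237), a call lost in the fit of the compared groups alone (0.0715), with thinned counts (0.0701) and without WT Sor replicate 1 (0.0976) or 4 (0.0529) or WNK2 trans Sor replicate 3 (0.0758) or 4 (0.0789). The antisense transcript ADAMTS9-AS2, at 0.239 ± 0.143 CPM (SD, n = 4) in WT Ctr and 0.636 ± 0.0865 CPM in WNK2- Sor, passed the test in no comparison.

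ADAMTS15 (ENSG00000166106, chromosome 11, 130448974 to 130476641, plus strand), another proteoglycan-cutting member, was lower in sorbitol in the WNK2- and transfected cells. Its levels were 4.44, 4.82, 5.87 and 4.94 CPM in WNK2- Ctr and 1.56, 0.863, 1.58 and 1.32 CPM in WNK2- Sor. WNK2 trans Ctr had 4.81, 3.39, 2.94 and 3.32 CPM and WNK2 trans Sor 1.18, 0.492, 0.978 and 0.950 CPM. The groups do not overlap in either case, and the log2 fold changes were −1.91 (SE 0.25, edgeR adjusted p = 6.13e-06) and −2.00 (SE 0.28, adjusted p = 1.91e-06). In WT cells, at 4.14, 1.74, 2.71 and 3.04 CPM in isotonic medium and 1.66, 1.37, 2.10 and 1.95 CPM in sorbitol, the groups overlap and the log2 value was −0.71 (95% interval −1.25 to −0.17, edgeR adjusted p = 0.0506). That value passed with DESeq2 (adjusted p = 0.0323) and without WT Ctr replicate 2 (−0.88, 0.0182), WNK2 trans Sor replicate 1 (0.0494) or 2 (0.0393), or WNK2- Sor replicate 2 (0.0446). The interaction with transfection was −1.30 (edgeR adjusted p = 0.0102) and that with genotype −1.20 (adjusted p = 0.0398). The latter was lost without filtering (adjusted p = 0.0627) and on leaving out WT Ctr replicate 2 or 3, WT Sor replicate 1, 3 or 4, or WNK2- Ctr or WNK2- Sor replicate 2, 3 or 4 (0.0530 to 0.0864 for ADAMTS15). WNK2- Ctr was above WT Ctr by 0.79 (edgeR adjusted p = 0.0109). WNK2 trans Sor was below WT Sor, at a log2 difference of −0.99 (adjusted p = 0.0115; 0.0538 without WNK2 trans Sor replicate 2).

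Of the procollagen peptidases, ADAMTS3 (ENSG00000156140, chromosome 4, 72280969 to 72569386, minus strand), which also helps to activate the lymphatic growth factor VEGFC, showed the widest difference between genotypes of any member. It had 6.96, 8.90, 10.1 and 6.29 CPM in WT Ctr and 12.4, 9.82, 12.3 and 10.5 CPM in WT Sor, against 0.361, 0.397, 0.845 and 0.408 CPM in WNK2- Ctr and 0.483, 0.681, 0.263 and 0.611 CPM in WNK2- Sor. The WNK2- libraries held 5 to 18 counts each, all far below the 87 to 223 of the WT libraries. The log2 fold change was −3.98 (SE 0.29, edgeR adjusted p = 3.99e-11) in isotonic medium and −4.44 (SE 0.28, adjusted p = 1.89e-12) in sorbitol, which are 15.8-fold and 21.7-fold differences. Its 21 tested neighbours within 2 Mb had a median log2 difference of 0.08 between WNK2- Ctr and WT Ctr, with 6 higher (20.7% of all genes) and 8 lower (21.5%). Transfected libraries had 11.2, 12.7, 6.61 and 7.63 CPM in isotonic medium and 4.98, 7.49, 7.65 and 7.40 CPM in sorbitol, with overlap, and the log2 value of −0.47 did not pass (edgeR adjusted p = 0.0770). It passed with thinned counts (0.0457) and without WNK2 trans Ctr replicate 3 (0.0286) or 4 (0.0489). WNK2 trans Sor was lower than WT Sor, at a log2 difference of −0.71 (edgeR adjusted p = 0.0144), and the interaction of transfection and sorbitol was −0.95 (adjusted p = 0.0181; 0.0549 without WNK2 trans Ctr replicate 2).

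ADAMTS2 (ENSG00000087116, chromosome 5, 179110851 to 179345430, minus strand), the main procollagen N-proteinase of skin, was the only member higher in the libraries labelled WNK2 trans Ctr than in WT Ctr. It stood at 1.05, 2.39, 2.24 and 1.45 CPM in WT Ctr, at 5.89, 7.54, 4.96 and 5.51 CPM in WNK2 trans Ctr and at 0.655, 0.929, 0.748 and 1.30 CPM in WNK2 trans Sor. WNK2 trans Ctr lies above every library of the other sets. WT Ctr and WNK2 trans Sor overlap, since WT Ctr replicate 1 and WNK2 trans Sor replicate 4 each lie within the range of the other group. The log2 fold change was 1.74 (SE 0.24, edgeR adjusted p = 1.60e-05) for WNK2 trans Ctr against WT Ctr and −2.70 (SE 0.26, adjusted p = 5.51e-09) for sorbitol within the transfected libraries. Both values rest on the label of WNK2 trans Ctr, since the means of WT Ctr and WNK2 trans Sor were 1.78 and 0.908 CPM. The remaining groups lay between 0.947 and 2.28 CPM, and no WNK2- comparison passed, except that sorbitol in WNK2- cells did in the fit of the compared groups alone (−0.63, adjusted p = 0.0486) and with thinned counts (0.0490). WNK2 trans Sor was below WT Sor, at a log2 difference of −0.91 (edgeR adjusted p = 0.0140; 0.0527 without WT Sor replicate 1).

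Among the members that cut COMP, ADAMTS12 (ENSG00000151388, chromosome 5, 33523535 to 33892192, minus strand) had the most counts of all members. Its levels were 72.4, 103, 109 and 121 CPM in WT Ctr, 140, 156, 162 and 138 CPM in WT Sor, 174, 243, 237 and 224 CPM in WNK2- Ctr and 283, 238, 249 and 294 CPM in WNK2- Sor. WNK2 trans Ctr stood at 115, 96.1, 68.0 and 105 CPM and WNK2 trans Sor at 208, 347, 298 and 326 CPM. All WNK2- libraries lay above all WT libraries, and the 2 WNK2- groups overlap. The log2 fold change of genotype was 1.11 (SE 0.16, edgeR adjusted p = 6.06e-06) in isotonic medium and 0.83 (SE 0.16, adjusted p = 0.000153) in sorbitol. Sorbitol raised ADAMTS12 by 0.56 in WT cells (edgeR adjusted p = 0.0146; 0.43 with adjusted p = 0.0513 without WT Ctr replicate 1) and by 1.62 in transfected cells (adjusted p = 1.60e-08), and the interaction with transfection was 1.06 (adjusted p = 0.000844). In WNK2- cells its value was 0.28 (95% interval −0.05 to 0.61, edgeR adjusted p = 0.285), which passed only in the fit of the compared groups alone (0.0417).

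ADAMTS7 (ENSG00000136378, chromosome 15, 78759203 to 78811431, minus strand) had the narrowest range of group means in fold terms, from 17.4 CPM in WNK2 trans Sor to 33.3 CPM in WT Sor. WT Ctr had 27.2, 15.4, 22.6 and 25.4 CPM and WT Sor 33.4, 33.0, 31.6 and 35.0 CPM, without overlap, a log2 fold change of 0.55 (SE 0.15, edgeR adjusted p = 0.0101). WNK2 trans Ctr, at 28.4, 31.3, 34.5 and 29.4 CPM, lay wholly above WT Ctr with a value of 0.45 that did not pass (edgeR adjusted p = 0.0551). It passed with DESeq2 (0.0338), with at least 10 counts in every library (0.0462) and without any 1 of WT Ctr replicates 1 and 4, WNK2 trans Sor replicates 1 and 2 and WNK2- Sor replicate 3 (0.0243 to 0.0485 for ADAMTS7). In sorbitol the direction was the opposite, since WNK2 trans Sor, at 22.8, 12.7, 16.9 and 17.2 CPM, lay below every WT Sor library (−0.94, edgeR adjusted p = 4.83e-05). The interaction of transfection and sorbitol was −1.38 (SE 0.22, adjusted p = 2.02e-05). WNK2- Sor was lower than WT Sor, at a log2 difference of −0.43 (edgeR adjusted p = 0.0218; −0.34 with adjusted p = 0.0930 without WNK2- Sor replicate 3). ADAMTS7 has near-identical pseudogene copies, whose 3 listed members held at most 6 counts in a library, so reads shared between the copies leave its value uncertain.

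ADAMTS6 (ENSG00000049192, chromosome 5, 65148736 to 65481920, minus strand) was higher in WNK2- cells than in WT cells in either medium and higher in WNK2 trans Sor than in WT Sor. It stood at 18.3, 16.4, 23.4 and 26.2 CPM in WT Ctr, 22.5, 22.0, 22.2 and 23.3 CPM in WT Sor, 68.5, 75.1, 73.9 and 73.5 CPM in WNK2- Ctr and 111, 94.0, 103 and 102 CPM in WNK2- Sor. In the transfected libraries it went from 14.0, 9.95, 9.74 and 9.45 CPM to 87.3, 153, 119 and 145 CPM. Each transfected or WNK2- group stands clear of the WT group in the same medium, and the 2 WT groups overlap. The WNK2- cells were higher by 1.79 (SE 0.15, edgeR adjusted p = 7.91e-10) in isotonic medium and by 2.19 (SE 0.15, adjusted p = 1.22e-11) in sorbitol. WNK2 trans Ctr was lower than WT Ctr, at a log2 difference of −0.97 (SE 0.16, edgeR adjusted p = 0.000108), and WNK2 trans Sor higher than WT Sor by 2.49 (SE 0.15, adjusted p = 1.02e-11). Within the transfected libraries sorbitol gave 3.55 (SE 0.16, edgeR adjusted p = 6.07e-15), an 11.8-fold difference that rests on the doubted WNK2 trans Ctr label (mean 10.8 CPM, with 126 CPM in WNK2 trans Sor and 21.1 CPM in WT Ctr), against 0.10 (95% interval −0.22 to 0.41, adjusted p = 0.689) in WT cells. The interaction was 3.46 (SE 0.22, adjusted p = 7.61e-12). In WNK2- cells sorbitol gave 0.49 (edgeR adjusted p = 0.0196), which was lost without WNK2- Ctr replicate 1 (0.0665) or WNK2- Sor replicate 1 (0.0669).

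**Figure D4:**
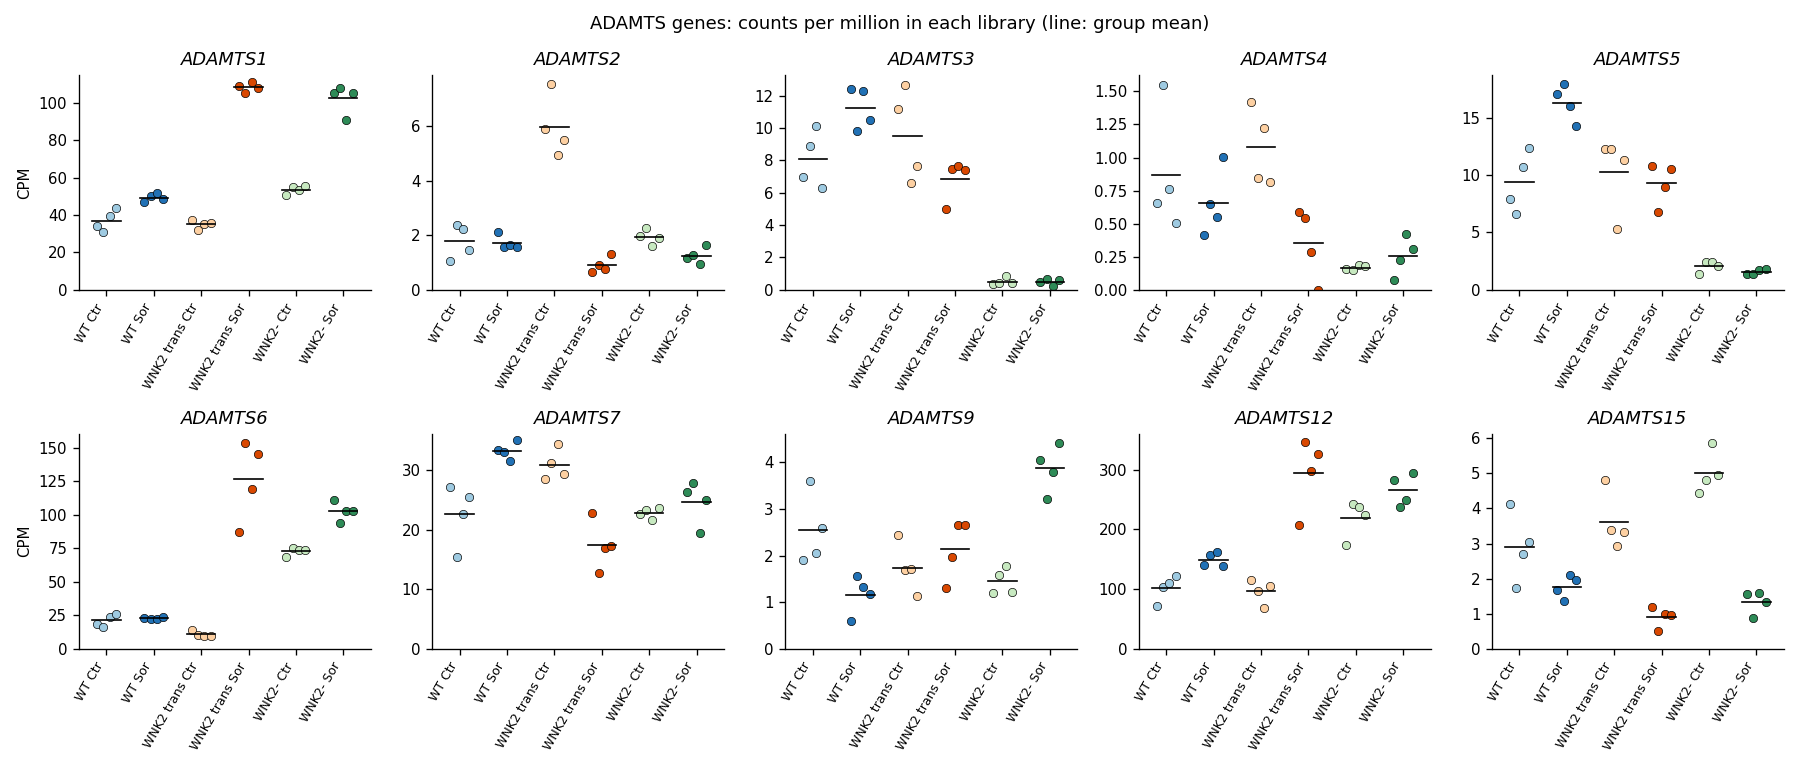
CPM of the 10 ADAMTS genes in each of the 24 libraries (points, y axis from 0, a scale of its own for each gene), by group (x axis), with group means as lines. ADAMTS3 and ADAMTS5 are lowest in the WNK2- groups, where ADAMTS3 stays between 0.263 and 0.845 CPM, and ADAMTS1, ADAMTS6 and ADAMTS12 are highest in WNK2- Sor and WNK2 trans Sor.

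The RefSeq promoter table held 5 of the 10 members (ADAMTS2, ADAMTS3, ADAMTS6, ADAMTS7 and ADAMTS12), as 250 bases before the start. The windows of ADAMTS6 and ADAMTS2, which were called in opposite directions within the transfected libraries and in WNK2 trans Ctr against WT Ctr, are printed 5′ to 3′ on the gene's strand. They come from RefSeq on GRCh38.p14, at chr5:65481921-65482170 for ADAMTS6 and chr5:179345462-179345711 for ADAMTS2, both on the minus strand. Capitals mark matches on either strand to GGAATG (bound by TEAD factors), TGGAAA (the core of sites for the tonicity factor NFAT5), TGACTCA or TGAGTCA (AP-1), TGTGGT (RUNX) or the NF-kB motif.
ADAMTS6: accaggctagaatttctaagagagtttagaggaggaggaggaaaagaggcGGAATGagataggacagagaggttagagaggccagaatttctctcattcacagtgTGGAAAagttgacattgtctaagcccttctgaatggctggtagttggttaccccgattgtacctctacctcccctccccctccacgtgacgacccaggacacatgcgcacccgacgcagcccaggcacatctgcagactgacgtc
ADAMTS2: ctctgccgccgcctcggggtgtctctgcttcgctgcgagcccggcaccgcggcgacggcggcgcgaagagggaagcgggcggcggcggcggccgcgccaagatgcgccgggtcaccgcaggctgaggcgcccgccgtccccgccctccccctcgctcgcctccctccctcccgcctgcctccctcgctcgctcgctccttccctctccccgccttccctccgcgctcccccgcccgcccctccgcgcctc
The ADAMTS6 window has 52.4% G and C, against a median of 58.0% over 35116 promoters, and holds GGAATG at 200 and TGGAAA at 145 bases before the start. The ADAMTS2 window has 80.0% G and C, none of the marked motifs and 4 copies of the GC box GGGCGG, which is not capitalised. Of all promoters, 11.9% hold GGAATG, 18.0% TGGAAA, 42.6% the GC box, 4.2% an AP-1 match, 11.0% the RUNX match and 9.96% the NF-kB match. The ADAMTS12 window also holds GGAATG, 119 bases before the start, and a GC box. That of ADAMTS3 holds an NF-kB match at 184 bases and a GC box at 44, and that of ADAMTS7 holds 7 GC boxes. These matches describe the letters of the windows and are not measured binding.

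Across the 24 libraries the members fell into sets that moved alike. Pearson's r of log2 CPM was 0.94 for ADAMTS6 and ADAMTS12, 0.90 for ADAMTS1 and ADAMTS6, and 0.90 for ADAMTS1 and ADAMTS12, and the 3 genes have the same order of group means. ADAMTS3 and ADAMTS5 had r = 0.95. ADAMTS2 ran against the first set, with r = −0.75 to ADAMTS6 and −0.72 to ADAMTS1, as did ADAMTS4 to ADAMTS6 at −0.77. Each r is a description over 24 libraries that share 6 groups, so it mostly reflects the group means. Of all tested genes, those most like ADAMTS1 over the 24 libraries were ENSG00000287542, NPC1 (a cholesterol transporter of lysosomes) and ENSG00000289850, at r = 0.96 each. For ADAMTS5 they were SOBP, ROBO1 (a receptor of axon guidance) and CNTNAP3, at r = 0.97, 0.96 and 0.96.

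Substrates of the family were mostly lower in WNK2- Sor and WNK2 trans Sor than in WT Sor. Of 17 substrate genes listed, 14 were tested. In WT Sor against WT Ctr, 6 were higher (edgeR adjusted p under 0.05; 11.4% of all tested genes were higher) and the other 8 did not pass. The median log2 fold change was 0.32 against 0.04 over all tested genes. In WNK2- Ctr against WT Ctr, 3 were higher (20.7% of all genes) and 7 lower (21.5%). In WNK2- Sor against WT Sor, 1 was higher (23.7% of all genes) and 10 lower (22.7%), with a median of −1.62 against 0.02 over all genes. WNK2 trans Ctr against WT Ctr had 8 higher (5.57% of all genes) with the other 6 not called. WNK2 trans Sor against WT Sor had 1 higher (16.1% of all genes) and 12 lower (15.5%), with a median of −1.06. Sorbitol within the WNK2- cells had 2 higher (8.25% of all genes) and 6 lower (6.64%), and within the transfected libraries 1 higher (24.3%) and 10 lower (23.7%). The interactions passed for 2 upward (3.99% of all genes) and 4 downward (4.66%) with genotype and for 1 upward (18.1%) and 10 downward (17.4%) with transfection.

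Aggrecan (ACAN), the substrate of ADAMTS4 and ADAMTS5, was lower in the WNK2- cells as well. Its mean was 3.25 ± 1.54 CPM (SD, n = 4) in WT Ctr and 0.716 ± 0.114 in WNK2- Ctr, a log2 fold change of −2.17 (edgeR adjusted p = 7.53e-05), and −3.38 in sorbitol (adjusted p = 8.09e-08). These values rest on few counts, 13 to 17 in WNK2- Ctr, 4 to 22 in WNK2- Sor and 15 to 64 in WT Ctr. Versican (VCAN), which ADAMTS1, ADAMTS5 and ADAMTS9 cut, was 10.6 ± 3.10 CPM in WT Ctr, 26.6 ± 3.09 in WT Sor and 0.307 ± 0.193 in WNK2- Ctr, with log2 genotype differences of −5.05 and −4.95 in isotonic medium and sorbitol, where its WNK2- Ctr libraries held only 3 to 13 counts. Of its exonic bases 58.8% lie in the span of an antisense gene, so its level may be understated, like that of ADAMTS5. COL3A1, a procollagen that ADAMTS2 and its relatives process, passed all 9 tests. It stood at 447 ± 12.9 CPM in WT Ctr, 1051 ± 26.0 in WNK2 trans Ctr and 231 ± 37.1 in WNK2 trans Sor. Its highest group is also that of ADAMTS2, and that of COL1A1, COL2A1 and COL5A1. The lowest groups differ, since COL3A1 was lowest in WNK2- Sor (58.0 ± 2.42 CPM) and ADAMTS2 in WNK2 trans Sor. In WNK2- Ctr COL3A1 stood at 103 ± 5.61 CPM, while ADAMTS2 was at 1.94 CPM against 1.78 CPM in WT Ctr. Fibronectin (FN1) passed all 9 tests as well, with −1.76 in WNK2- Sor against WT Sor. COMP, the substrate of ADAMTS7 and ADAMTS12, had 2.09 ± 0.627 CPM in WT Ctr and was lower in WNK2- Sor than in WT Sor (−2.16, edgeR adjusted p = 0.000251). That value rests on 8 to 9 counts in WNK2- Sor and 20 to 46 in WT Sor. In WNK2 trans Sor COMP stood at 0.503 ± 0.413 CPM (0 to 15 counts), against 1.77 ± 0.623 CPM in WT Sor.

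The single substrate higher in both sorbitol comparisons with WT was VEGFC, which ADAMTS3 activates together with its cofactor CCBE1. VEGFC was higher in WNK2- Sor than in WT Sor by 0.69 (edgeR adjusted p = 3.55e-06) and in WNK2 trans Sor than in WT Sor by 1.41 (adjusted p = 1.21e-10). CCBE1 was higher in the same comparisons by 1.97 (adjusted p = 7.29e-12) and 2.47 (adjusted p = 1.24e-12), and lower in WNK2 trans Ctr than in WT Ctr (−1.69, adjusted p = 2.16e-08). ADAMTS3 was lower in both sorbitol comparisons. Its group means ran from 0.503 to 11.3 CPM, those of CCBE1 from 3.02 to 55.0 CPM and those of VEGFC from 34.2 to 148 CPM. Of the exonic bases of VEGFC 53.7% lie in the span of another gene, against 6.29% for CCBE1 and 0.976% for ADAMTS3. The level of VEGFC may therefore be understated beside the others.

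**Figure D5:**
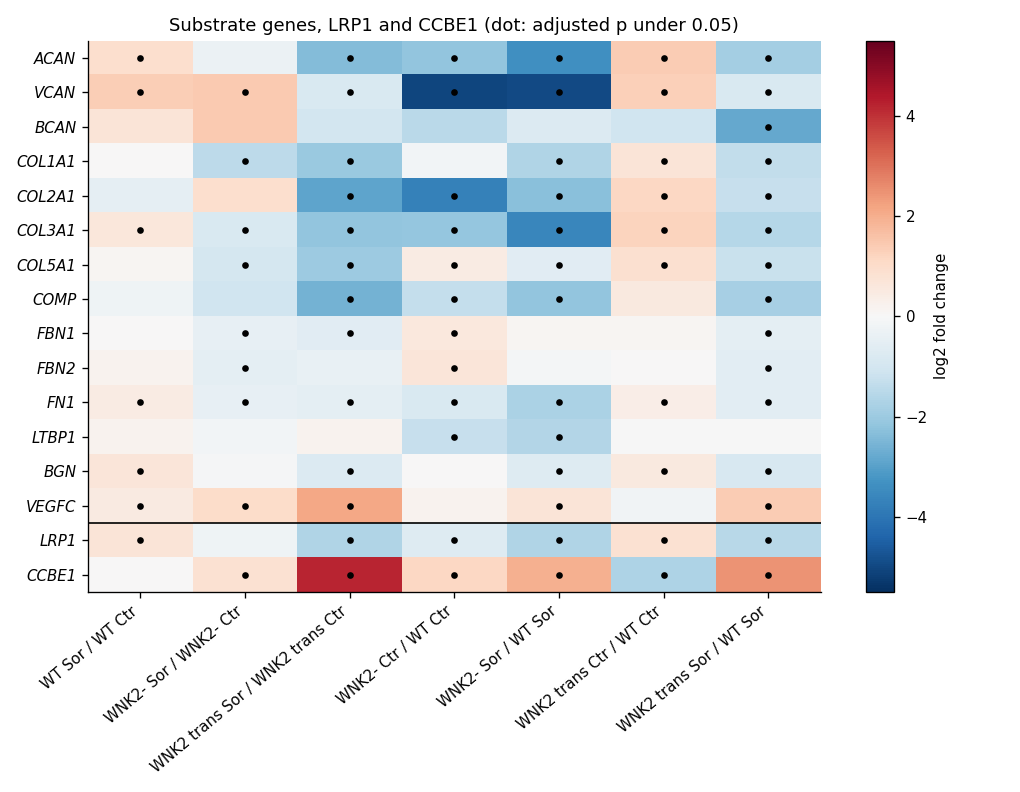
Log2 fold change (colour) of the 14 tested substrate genes of the family and, under the line, the uptake receptor LRP1 and the VEGFC cofactor CCBE1 (rows) in 7 comparisons (columns), with dots where the edgeR adjusted p was under 0.05. Most substrates are blue in WNK2 trans Sor against WT Sor, where 12 passed downward, and VEGFC (1.41) and CCBE1 (2.47) are red.

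Genes that inhibit, activate, modify or clear ADAMTS proteases were listed as 16, of which 11 were tested. They had 2 higher and 1 lower in WT Sor against WT Ctr (11.4% and 12.7% of all tested genes). WNK2- Ctr against WT Ctr had 6 and 3 (20.7% and 21.5%), and WNK2- Sor against WT Sor 3 and 3 (23.7% and 22.7%). WNK2 trans Ctr against WT Ctr had 1 higher and 2 lower (5.57% and 6.98%), and WNK2 trans Sor against WT Sor 2 higher and 3 lower (16.1% and 15.5%). Sorbitol gave 1 higher and 1 lower within the WNK2- cells (8.25% and 6.64%) and 3 higher and 2 lower within the transfected libraries (24.3% and 23.7%). LRP1, the receptor that takes up ADAMTS4 and ADAMTS5, had 430 ± 21.6 CPM in WT Sor and 137 ± 13.8 CPM in WNK2- Sor (−1.65, edgeR adjusted p = 7.79e-08), and was lower in WNK2 trans Sor as well (−1.54, adjusted p = 7.42e-07). PCSK6, a convertase that activates proproteins, was higher in WNK2- cells in either medium, by 1.94 and 1.89, without a passing difference between the transfected and WT groups. TIMP3, the main tissue inhibitor of the aggrecanases, is among the genes that could not be counted.

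The other ADAMTS and ADAMTS-like genes did not move in a single direction. Of 16 listed, 15 were matched and 11 tested, with 2 higher and 1 lower in WT Sor against WT Ctr (11.4% and 12.7% of all tested genes). WNK2- Ctr against WT Ctr had 5 and 2 (20.7% and 21.5%), and WNK2- Sor against WT Sor 3 and 6 (23.7% and 22.7%). WNK2 trans Ctr against WT Ctr had 2 and 1 (5.57% and 6.98%), and WNK2 trans Sor against WT Sor 2 and 4 (16.1% and 15.5%). Sorbitol gave 2 lower (6.64% of all genes), with the other 9 not called, within the WNK2- cells. Within the transfected libraries it gave 2 higher and 6 lower (24.3% and 23.7%). ADAMTS13, the protease of von Willebrand factor, passed most often among them. It had 13.9 ± 3.12 CPM (SD, n = 4) in WT Ctr, 24.1 ± 2.34 in WT Sor and 7.30 ± 0.332 in WNK2- Sor, with a log2 fold change of −1.72 between genotypes in sorbitol (edgeR adjusted p = 9.88e-09). ADAMTS17 was higher in WNK2- Ctr (6.95 ± 0.846 CPM) than in WT Ctr (0.961 ± 0.695 CPM), by 2.85 on the log2 scale (adjusted p = 1.14e-07), and its WT Ctr libraries held 3 to 29 counts.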

How the data were processed

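RNA-seq was measured in 24 libraries of T/C-28a2 cells, 4 in each of 6 groups taken from the labels. The authors deposited raw read counts per Ensembl gene for each library, without normalization. The submitters' processing notes name FastQC 0.11.9, HISAT2 2.2.1, HTSeq 2.0.2 and DESeq2 1.38.3. The annotation release was not given in the sources used here, and 58279 of 62703 identifiers had a position in GENCODE 29 on GRCh38. The filterByExpr function chose the genes tested (count of 10, total of 15). With TMM factors, 6 group means were fitted to all 24 libraries by the quasi-likelihood test of edgeR 4.0.16 in R 4.3.3, with Benjamini-Hochberg adjustment over 16600 genes and a threshold of 0.05. The test was checked on simulated counts. CPM are counts scaled to TMM library sizes of 1e6. Intervals of fold changes are 95% intervals. Replicates of a group differed by more than counting noise (chi-square per degree of freedom 2.26 to 64.1 over 36 pairs). Alternatives were DESeq2 1.42.0, RLE factors, thinned counts, no filter, the replicate number as a block, only the compared groups in the fit, a floor of 10 counts per library, and each library left out (24 fits). A fit without the libraries labelled WT Ctr and WNK2 trans Ctr, and levels on exons outside other genes, were added after seeing the data. All 10 members are named, together with WNK2, list genes that passed most often or stand beside a member, and the 3 genes most correlated with ADAMTS1 and with ADAMTS5. ADAMTS16, ADAMTS17, PCSK6 and COMP were named after their values were seen. The members and lists were chosen with earlier results of these data known.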

Additional observations from a re-analysis of the deposited data

Results flagged for a closer look

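A library stood apart from the other 3 of its group in 4 of 60 checks of a member within a group, where chance flags about 1 in 20. ADAMTS3 was at 4.98 CPM in WNK2 trans Sor replicate 1, against 7.40 to 7.65 CPM in the others, and at 0.845 CPM in WNK2- Ctr replicate 3, against 0.361 to 0.408 CPM. ADAMTS5 was at 5.33 CPM in WNK2 trans Ctr replicate 3, against 11.3 to 12.3 CPM. ADAMTS6 was at 14.0 CPM in WNK2 trans Ctr replicate 1, against 9.45 to 9.95 CPM.

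The sorbitol difference itself differed from that in WT cells, by the interaction term of the edgeR fit, for 4 members by genotype. The values on the log2 scale were 0.51 for ADAMTS1, −1.22 for ADAMTS5, 2.54 for ADAMTS9 and −1.20 for ADAMTS15. The sorbitol difference of ADAMTS9 was called in both WT and WNK2- cells, in opposite directions, and that of ADAMTS5 was 0.79 in WT cells and −0.42, not called, in WNK2- cells.

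For transfection the same test passed for 9 members. The differences on the log2 scale were 1.21 for ADAMTS1, −2.64 for ADAMTS2, −0.95 for ADAMTS3, −0.95 for ADAMTS5, 3.46 for ADAMTS6, −1.38 for ADAMTS7, 1.44 for ADAMTS9, 1.06 for ADAMTS12 and −1.30 for ADAMTS15. These values use the groups labelled WT Ctr and WNK2 trans Ctr, between which the WNK2 counts run against the transfection label. They also use WT Sor, where the WNK2 counts lay below every WT Ctr library.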

How the results depend on the processing

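For the interaction of genotype and sorbitol, 4 members passed in the reported fit and 2 without a filter on low counts (2 to 4 with 1 library left out). In WNK2- Ctr against WT Ctr 8 members passed, and 5 with at least 10 counts in every library, where ADAMTS3, ADAMTS4 and ADAMTS15 were not tested (7 to 8 with 1 library left out). With 1 library left out, the number of members called was 4 to 6 in WT Sor against WT Ctr, 7 to 8 in WNK2- Sor against WT Sor, 2 to 3 in WNK2 trans Ctr against WT Ctr, 7 to 9 in WNK2 trans Sor against WT Sor, 3 to 4 for sorbitol in WNK2- cells, 7 to 8 for sorbitol in transfected cells and 8 to 9 for the interaction with transfection. Without the libraries labelled WT Ctr and WNK2 trans Ctr, 7, 9 and 4 members passed in the 3 comparisons that do not use them, as in the reported fit. Those comparisons use no mean of the dropped groups in either fit, so their counts cannot speak to the labels. A fit of the compared groups alone moved the genes called among all tested from 2082 to 747 in WNK2 trans Ctr against WT Ctr and from 2473 to 4824 for sorbitol in WNK2- cells.

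Signs turned only in values that never passed. ADAMTS3 in sorbitol against isotonic WNK2- cells, at 0.02 in the reported fit, was −0.0024 without a filter, −0.033 with thinned counts and −0.15 to 0.38 with 1 library left out, and ADAMTS4 there went from 0.53 to −0.21 with thinned counts. With 1 library left out, ADAMTS2 ran from −0.23 to 0.12, ADAMTS4 from −0.68 to 0.025 and ADAMTS6 from −0.0028 to 0.22 in WT Sor against WT Ctr, ADAMTS2 from −0.075 to 0.28 and ADAMTS7 from −0.14 to 0.11 in WNK2- Ctr against WT Ctr, and ADAMTS1 from −0.15 to 0.022 and ADAMTS12 from −0.22 to 0.053 in WNK2 trans Ctr against WT Ctr. The cause was not tested.

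Nothing in the labels ties same-numbered libraries together, and the deviations of same-numbered libraries correlated at −0.61 to 0.52 over 28 pairs of libraries (4 in each of 7 comparisons), 9 of them above 0.1. With the replicate number as a block, 6 members passed in WT Sor against WT Ctr (ADAMTS15 at −0.68, adjusted p = 0.0353) and 3 in WNK2 trans Ctr against WT Ctr (ADAMTS7 at 0.47, adjusted p = 0.0475), and the other counts were as in the reported fit. Depth limits ADAMTS4 most, with 0 to 24 counts a library.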
